A study of Homo sapiens with 6 samples.

Results

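The enzymes of the methionine cycle and of transsulfuration described here are MAT2A, MAT2B, AHCY, AHCYL1, AHCYL2, MTR, MTRR, CBS and CTH. These 9 genes were taken by gene name from a table of 20036 genes, in which each had 1 row. The RNA came from PANC-1, a human line grown from a pancreatic tumour. The control group was PANC-1 given a null virus, and the knockdown group was PANC-1 given a lentivirus against SHMT2, with 3 libraries in each group. SHMT2 is the mitochondrial enzyme that takes a one-carbon unit from serine. The labels give no hairpin sequence, no days after delivery and no clone, and leave unsaid whether replicates are separate cultures. The p-values therefore rest on the spread of these libraries alone, and that spread may be technical. In bulk RNA, fewer cells carrying a transcript and less of it per cell cannot be told apart.

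In the methionine cycle, methionine is joined to adenosine to make S-adenosylmethionine (SAM), the methyl donor of most methyltransferases. What is left after methyl transfer, S-adenosylhomocysteine (SAH), is cleaved to homocysteine, which is either methylated back to methionine with a one-carbon unit from methyl-folate or passed through transsulfuration to cysteine. MAT2A makes SAM and MAT2B is its regulatory subunit, AHCY cleaves SAH, and AHCYL1 and AHCYL2 are AHCY-like proteins known for binding other proteins. MTR remethylates homocysteine with cobalamin as cofactor, MTRR reactivates MTR, and CBS and then CTH carry homocysteine to cysteine.

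Library totals lay between 15405884 and 19075734 counts. Levels of 1 gene across libraries are given as CPM, a count set against its library's total, scaled by TMM, edgeR's normalization for library composition. Differences are log2 fold changes of knockdown over control from edgeR's quasi-likelihood test, with Benjamini-Hochberg adjustment over the 12292 genes that passed a filter on low counts. A gene is called, and said to have risen or fallen, at an adjusted p below 0.05. SHMT2 was measured at 133, 153 and 153 CPM in control replicates 1, 2 and 3 and at 6.91, 3.42 and 5.23 CPM in knockdown replicates 1, 2 and 3, which left 3.55% of the control mean. In each group 1 library differed from the rest, replicate 1 of the control and replicate 2 of the knockdown. The chi-square per gene was 24.6 and 29.4 for the pairs with control replicate 1 but 2.04 for the other control pair, and 70.7 and 72.3 for the pairs with knockdown replicate 2 but 2.40 for the other knockdown pair. Mitochondrially encoded genes took 10.4% of counts in knockdown replicate 2, 4.72% in each of the other knockdown replicates and 5.78% to 6.86% in the controls. Of 6 markers of pancreatic ductal epithelium, KRT8 was measured at 947 CPM in controls and 1410 in knockdowns and rose, KRT18 stood at 421 and 538 CPM, and KRT7 was near absent at 1.09 and 1.48 CPM. EPCAM fell from 18.1 to 6.95 CPM, SOX9 fell from 265 to 201 CPM, and KRT19 rose from 3, 4 and 0 counts in the control libraries to 1523, 900 and 1518. The part of these changes in the results below was not tested. The 8 markers of immune, stromal, endothelial, acinar and islet cells had at most 5 counts each in any library.

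All 9 enzymes passed the filter on low counts. Of the 9, 4 rose (CTH, MAT2A, AHCYL2 and AHCYL1), 2 fell (AHCY and CBS), and 3 were not called (MAT2B, MTR and MTRR). Among all 12292 tested genes 51.8% were called, 26.7% higher and 25.1% lower, so 6 called of 9 (66.7%) lies near the background and is not in itself a feature of this group. The control and knockdown values did not overlap in 7 of the 9, 4 of them higher and 3 lower, against 61.4% of all tested genes. The median log2 fold change of the 9 was 0.39, against 0.00 over all tested genes, whose middle range between the quartiles ran from -0.42 to 0.47. The enzymes therefore split by gene: the SAM-making subunit, the last step to cysteine and both AHCY-like genes rose, while the SAH hydrolase itself fell.

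**Figure D1:**
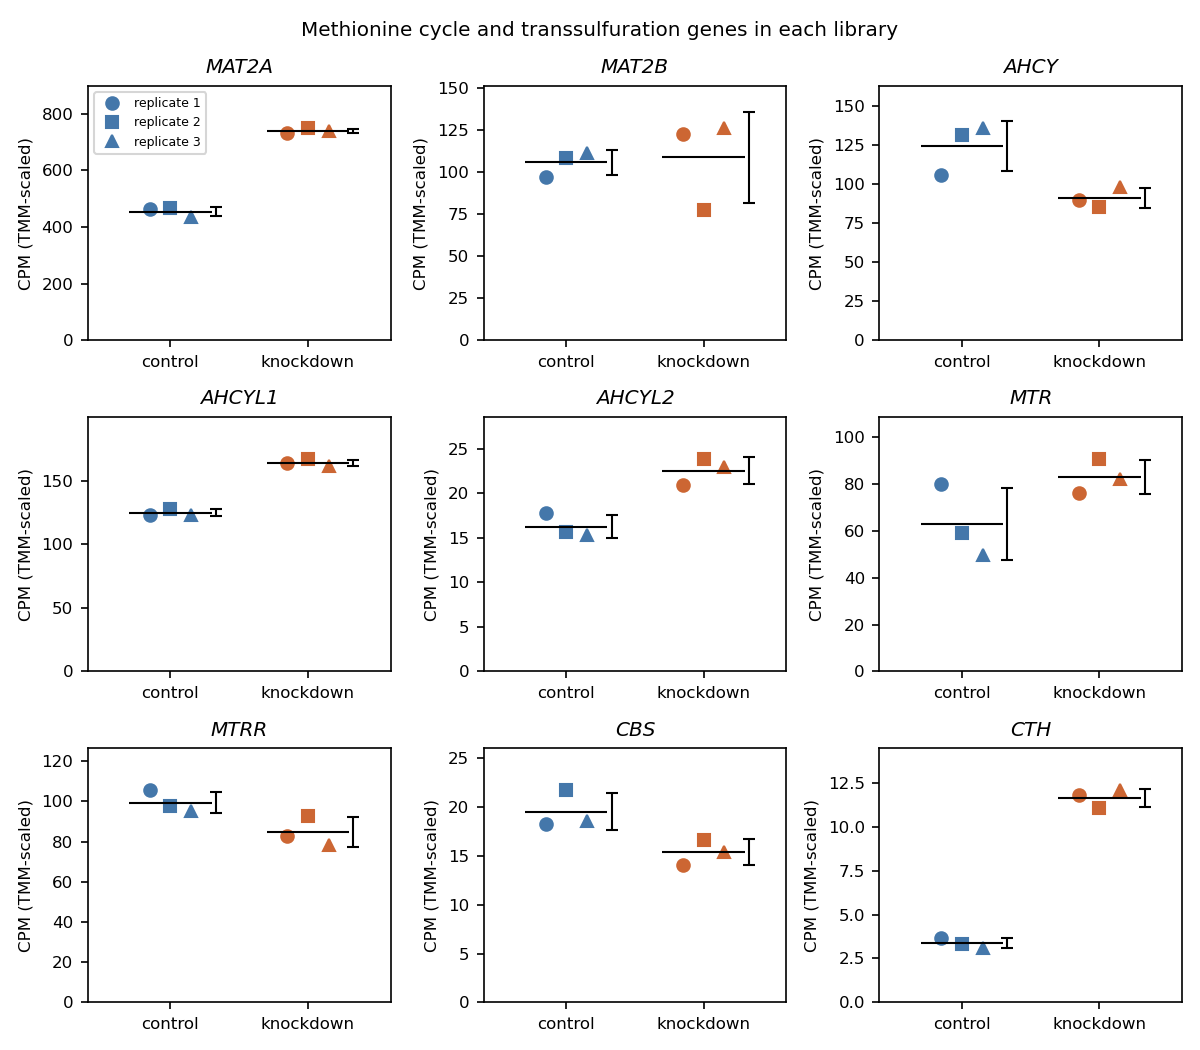
TMM-scaled CPM of each of the 9 enzymes in the 6 libraries, with 1 panel per gene and a linear axis from 0. Marker shapes are replicates 1, 2 and 3, horizontal lines are group means and bars are ± 1 SD. In CTH the control libraries sit between 3.10 and 3.65 CPM and the knockdown libraries between 11.1 and 12.1 CPM, whereas in MTR and MAT2B the groups overlap.

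MAT2A is the only member among the 9 whose transcript held more than 1 copy of the nonamer TACAGAAAA or TACAGAGAA (written with T for U), the sequence that METTL16 is known to read in the hairpins at the end of the MAT2A message. METTL16 is an RNA methyltransferase known to methylate these hairpins and to promote splicing of a retained MAT2A intron when SAM is low. The 6 copies in transcript MAT2A-201 (2819 bases, GENCODE 29) all lie after the stop codon, which ends at base 1311. They are shown because METTL16 and MAT2A were both measured here. Each line gives the first base of the nonamer, counted from 1 at the transcript's 5′ end, and the nonamer in capitals:
MAT2A site at 1351: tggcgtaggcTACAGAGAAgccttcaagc
MAT2A site at 2138: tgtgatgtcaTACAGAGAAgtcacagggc
MAT2A site at 2323: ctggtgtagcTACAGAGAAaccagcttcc
MAT2A site at 2438: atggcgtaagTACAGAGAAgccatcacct
MAT2A site at 2553: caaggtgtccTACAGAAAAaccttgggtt
MAT2A site at 2661: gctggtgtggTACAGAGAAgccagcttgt
The TACAGAGAA form is found at 5 of the 6 sites and the TACAGAAAA form at the fifth. A nonamer of either form is held by 1516 of 19684 protein-coding genes (7.7%, longest transcript per gene), and 2 genes (0.0102%) hold 6 or more, MUCL3 with 23 copies and MAT2A with 6. AHCYL1 held 1 copy, in its coding part, and the other 7 enzymes held 0.

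MAT2A (ENSG00000168906, chr2:85539168-85545281, plus strand), the catalytic subunit that makes SAM outside the liver, was measured at 463, 467 and 436 CPM in control replicates 1, 2 and 3 and at 732, 748 and 738 CPM in knockdown replicates 1, 2 and 3. All 3 knockdown libraries were above all 3 controls, and the spread within the knockdown group was small. The mean rose from 455 ± 16.6 to 739.7 ± 8.10 CPM (SD, n = 3 each), a 1.63-fold difference with a log2 fold change of 0.70 (SE 0.08, 95% interval 0.52 to 0.88, edgeR adjusted p = 0.000331). Without control replicate 1 and knockdown replicate 2 it was 0.71 (SE 0.04). The difference was not shared by the genes around MAT2A: the 50 nearest tested genes, 25 on each side, had a median of -0.18, and 3 of the 50 were above MAT2A. Stretches of 50 bases of MAT2A-201 recur in transcripts of other genes for 21.1% of the transcript, including GGCX, which overlaps the end of MAT2A on the opposite strand. With no strand setting stated, reads there cannot be assigned to 1 of the genes, but GGCX itself had a mean of 87.9 CPM in controls and 78.6 CPM in knockdowns and was not called (log2 fold change -0.16, SE 0.10).

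METTL16, which is not one of the 9, was measured at 138, 145 and 151 CPM in control replicates 1, 2 and 3 and at 116, 111 and 112 CPM in knockdown replicates 1, 2 and 3. All 3 knockdown libraries lay below the controls, and the mean fell from 145 ± 6.55 to 113 ± 2.49 CPM (SD, n = 3 each; log2 fold change -0.35, SE 0.08, edgeR adjusted p = 0.00748). Its 50 nearest tested genes had a median of -0.36, about the value of METTL16 itself. METTL16 thus fell where MAT2A rose, and gene-level counts do not show methylation or intron retention.

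MAT2B (ENSG00000038274, chr5:163503114-163519558, plus strand), the regulatory subunit, was measured at 97.3, 109 and 112 CPM in the control libraries and at 123, 77.8 and 126 CPM in the knockdown libraries. Knockdown replicate 2, one of the 2 libraries that stood apart, was the lowest of all 6 and the other knockdown libraries were the highest. The mean was 106 ± 7.54 CPM in controls and 109 ± 27.0 CPM in knockdowns (SD, n = 3 each), and the difference was not called (log2 fold change 0.04, SE 0.18, 95% interval -0.38 to 0.46, edgeR adjusted p = 0.861). Without the 2 libraries that stood apart the log2 fold change was 0.18 (SE 0.05) and called (edgeR adjusted p = 0.00037), where the spread comes from pairs of libraries that hardly differ. The 2 subunits of the SAM synthetase therefore gave different values, 0.70 for MAT2A and 0.04 for MAT2B, and the difference between them was not tested.

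AHCY (ENSG00000101444, chr20:34280268-34311802, minus strand), the enzyme that cleaves SAH to homocysteine and adenosine, was measured at 106, 132 and 136 CPM in control replicates 1, 2 and 3 and at 89.8, 85.3 and 98.0 CPM in knockdown replicates 1, 2 and 3. The groups did not overlap, and control replicate 1 was the control nearest to the knockdown libraries. The mean fell from 124 ± 16.0 to 91.0 ± 6.47 CPM (SD, n = 3 each), which is 73.1% of control (log2 fold change -0.45, SE 0.12, 95% interval -0.72 to -0.18, edgeR adjusted p = 0.0137). The call was lost without control replicate 2 (edgeR adjusted p = 0.0576) or control replicate 3 (0.0569), and the value was -0.51 (SE 0.05) without both libraries that stood apart. Around AHCY the median of the 50 nearest tested genes was 0.22, opposite in sign, and 4 of the 50 were below AHCY.

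The AHCY-like genes went the other way. AHCYL1 (ENSG00000168710, chr1:109984765-110023742, plus strand), known as an inhibitor of the IP3 receptor calcium channel, was measured at 123, 128 and 123 CPM in the control libraries and at 164, 167 and 161 CPM in the knockdown libraries. The groups did not overlap and each had a narrow spread. The mean rose from 125 ± 2.76 to 164 ± 2.73 CPM (SD, n = 3 each), 1.31-fold (log2 fold change 0.39, SE 0.07, 95% interval 0.22 to 0.57, edgeR adjusted p = 0.00362), beside a median of 0.06 for its 50 nearest tested genes.

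AHCYL2 (ENSG00000158467, chr7:129225030-129430211, plus strand), the closest relative of AHCYL1, was measured at 17.8, 15.7 and 15.3 CPM in the control libraries and at 20.9, 23.8 and 22.9 CPM in the knockdown libraries. All 3 knockdown libraries were above all 3 controls. The mean rose from 16.3 ± 1.31 to 22.6 ± 1.49 CPM (SD, n = 3 each), 1.39-fold (log2 fold change 0.47, SE 0.11, 95% interval 0.21 to 0.73, edgeR adjusted p = 0.00929). Its surroundings moved too: the 50 nearest tested genes had a median of 0.31 and 15 of them were above AHCYL2, which leaves 0.16 for AHCYL2 beyond that median.

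The fall of AHCY and the rise of its relatives changed the make-up of the family. The deposited FPKM are fragments scaled by gene length and library total, so levels of different genes compare only as far as the lengths used hold. On this scale AHCY made up 50.2%, 55.0% and 56.7% of the summed FPKM of AHCY, AHCYL1 and AHCYL2 in control replicates 1, 2 and 3. In knockdown replicates 1, 2 and 3 it made up 39.4%, 37.5% and 41.6%. The mean share was 53.9 ± 3.39% in controls and 39.5 ± 2.07% in knockdowns (SD, n = 3 each), and the ranges did not overlap. This sum was chosen after the values were seen and has no test.

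MTR (ENSG00000116984, chr1:236795260-236921278, plus strand), methionine synthase, was measured at 79.8, 59.1 and 49.9 CPM in control replicates 1, 2 and 3 and at 76.3, 90.5 and 82.0 CPM in knockdown replicates 1, 2 and 3. Control replicate 1 lay above knockdown replicate 1, so the groups overlapped. The mean was 62.9 ± 15.3 CPM in controls and 82.9 ± 7.12 CPM in knockdowns (SD, n = 3 each), and the difference was not called (log2 fold change 0.40, SE 0.17, 95% interval 0.00 to 0.79, edgeR adjusted p = 0.0841). Without control replicate 1 it was 0.60 and called (edgeR adjusted p = 0.00567), and without both libraries that stood apart it was 0.55 (SE 0.06). The 50 nearest tested genes had a median of 0.55, above MTR, and the trend of log2 fold change with transcript length over all tested genes was 0.32 at the length of MTR.

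MTRR (ENSG00000124275, chr5:7851186-7906025, plus strand), the reductase that restores the cobalamin of MTR, was measured at 105, 97.8 and 94.98 CPM in the control libraries and at 82.7, 92.8 and 78.2 CPM in the knockdown libraries. The highest knockdown library, replicate 2, lay just under the lowest control. The mean was 99.4 ± 5.41 CPM in controls and 84.6 ± 7.45 CPM in knockdowns (SD, n = 3 each), and the difference was not called (log2 fold change -0.23, SE 0.10, 95% interval -0.46 to -0.01, edgeR adjusted p = 0.0764). It was called without knockdown replicate 2 (-0.31, edgeR adjusted p = 0.0181), and the 50 nearest tested genes had a median of -0.14.

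CTH (ENSG00000116761, chr1:70411218-70439851, plus strand), cystathionine gamma-lyase, the enzyme that releases cysteine from cystathionine, changed most of the 9. It was measured with 58, 50 and 49 counts in the control libraries and with 237, 181 and 233 in the knockdown libraries, by replicate number. In CPM the libraries held 3.65, 3.34 and 3.10 in control and 11.8, 11.1 and 12.1 in knockdown, so the lowest knockdown library was far above the highest control. The mean rose from 3.36 ± 0.276 to 11.6 ± 0.52 CPM (SD, n = 3 each), 3.45-fold (log2 fold change 1.79, SE 0.14, 95% interval 1.47 to 2.11, edgeR adjusted p = 7.04e-05). The 50 nearest tested genes had a median of 0.35, and 1 of them was above CTH. Of all tested genes, 5% lay above 1.47 on the same scale.

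CBS (ENSG00000160200, chr21:43053191-43076943, minus strand), which joins homocysteine to serine and comes just before CTH, was measured at 18.3, 21.7 and 18.6 CPM in the control libraries and at 14.1, 16.7 and 15.4 CPM in the knockdown libraries. The groups did not overlap, though the gap between the lowest control and the highest knockdown library was small. The mean fell from 19.5 ± 1.88 to 15.4 ± 1.31 CPM (SD, n = 3 each), 78.7% of control (log2 fold change -0.35, SE 0.12, 95% interval -0.63 to -0.06, edgeR adjusted p = 0.0446). This call was weak. It was lost in 10 of 15 alternative settings, among them DESeq2 (adjusted p = 0.0555), the fit without the filter on low counts (edgeR adjusted p = 0.0534) and the fits without control replicate 2 or 3 or without knockdown replicate 1 or 3. The level of CBS is also uncertain, because 94.6% of the 50-base stretches of transcript CBS-204 recur in CBSL, a near-identical gene in GENCODE 29 on the same chromosome. The deposited data held 0 rows under the GENCODE 29 identifier of CBSL, so CBSL could not be analysed. How reads shared by CBS and CBSL were counted is not stated.

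At the deposited gene lengths, CTH and CBS thus traded places on the FPKM scale. CTH made up 35.9%, 30.2% and 31.9% of the summed FPKM of CBS and CTH in control replicates 1, 2 and 3, and 70.2%, 65.1% and 68.7% in knockdown replicates 1, 2 and 3. The mean share was 32.7 ± 2.93% in controls and 68.0 ± 2.63% in knockdowns (SD, n = 3 each). The ranges lay far apart, and the share was chosen after the values were seen and has no test.

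**Figure D2:**
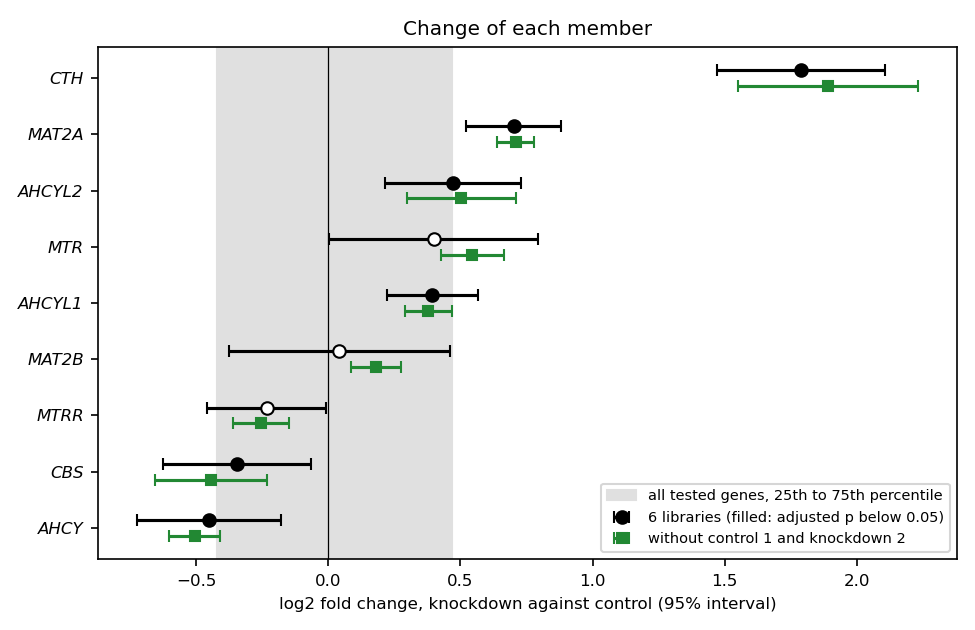
Log2 fold change of knockdown over control for each of the 9 enzymes, with 95% intervals, from edgeR's quasi-likelihood fit. Circles use all 6 libraries and are filled where the gene was called, squares leave out control replicate 1 and knockdown replicate 2, and the grey band spans the quartiles of all tested genes. CTH stands at 1.79 and MAT2A at 0.70, while MAT2B (interval -0.38 to 0.46), MTR (0.00 to 0.79) and MTRR (-0.46 to -0.01) were not called with all 6.

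**Figure D3:**
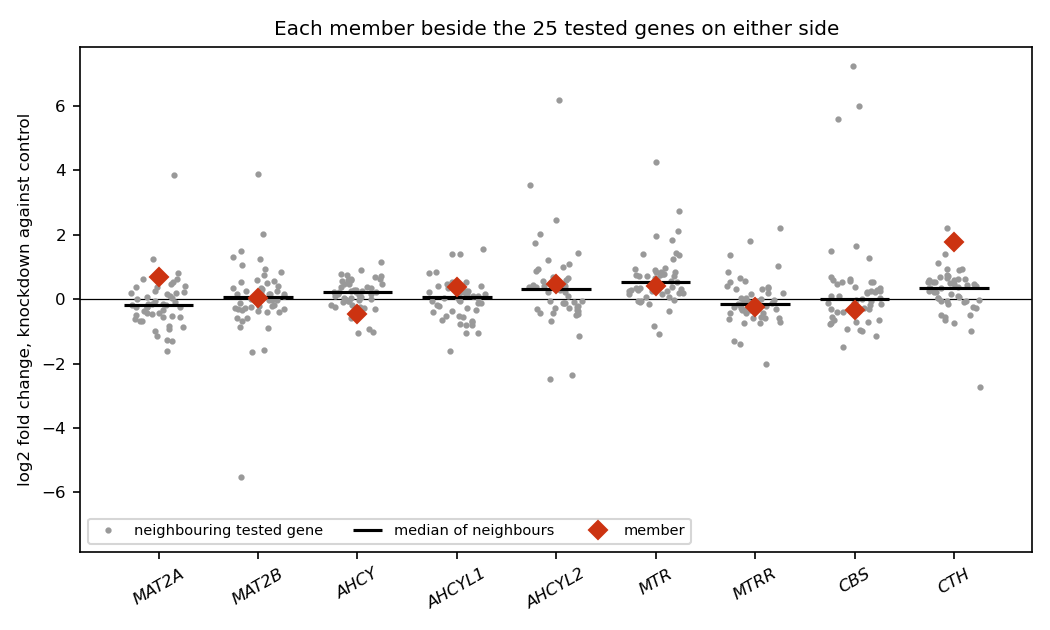
Log2 fold change of each enzyme beside the log2 fold changes of the 25 tested genes on each side of it on its chromosome, with their median. CTH (1.79 against a median of 0.35) and MAT2A (0.70 against -0.18) lie far above the median of their surroundings, whereas MTR (0.40 against 0.55) does not.

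Compared per length, MAT2A was by far the most abundant of the 9. In controls the mean FPKM ran from 98.6 ± 4.09 for MAT2A through 31.0 ± 3.84 for AHCY, 24.05 ± 0.568 for AHCYL1, 14.9 ± 0.896 for MTRR and 11.8 ± 0.777 for MAT2B. Below these came MTR at 3.18 ± 0.794, CBS at 2.80 ± 0.269, AHCYL2 at 2.31 ± 0.199 and CTH at 1.35 ± 0.119 FPKM (SD, n = 3 each). CTH was thus the least abundant enzyme in control cells, and in this order MTR and CBS were the neighbours whose libraries overlapped. In knockdowns MAT2A stood at 169.6 ± 5.70 FPKM, followed by AHCYL1 at 33.5 ± 0.992 and AHCY at 24.1 ± 2.58. AHCYL1 and AHCY had changed places at the deposited gene lengths. MTRR at 13.4 ± 0.634 and MAT2B at 12.97 ± 3.68 overlapped, as did CTH at 4.96 ± 0.427 and MTR at 4.42 ± 0.214, and AHCYL2 at 3.38 ± 0.155 and CBS at 2.33 ± 0.123 FPKM came last. These levels depend on the length the table gives each gene, which was longer than the exon bases of GENCODE 29 for MTR (19254 against 11374) and for MAT2B (8700 against 5153). With the GENCODE 29 lengths, a setting chosen after the values were seen, MAT2B stood at 19.96 ± 1.31 FPKM in controls and 21.9 ± 6.21 in knockdowns, and its mean lay above that of MTRR in both groups. MTR stood at 5.38 ± 1.34 FPKM in controls and 7.49 ± 0.362 in knockdowns, where it lay above CTH, so these places in the order turn with the length used. The places of AHCY, AHCYL1, CBS and CTH also rest on the deposited lengths, and lengths of single transcripts were not tried.

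**Figure D4:**
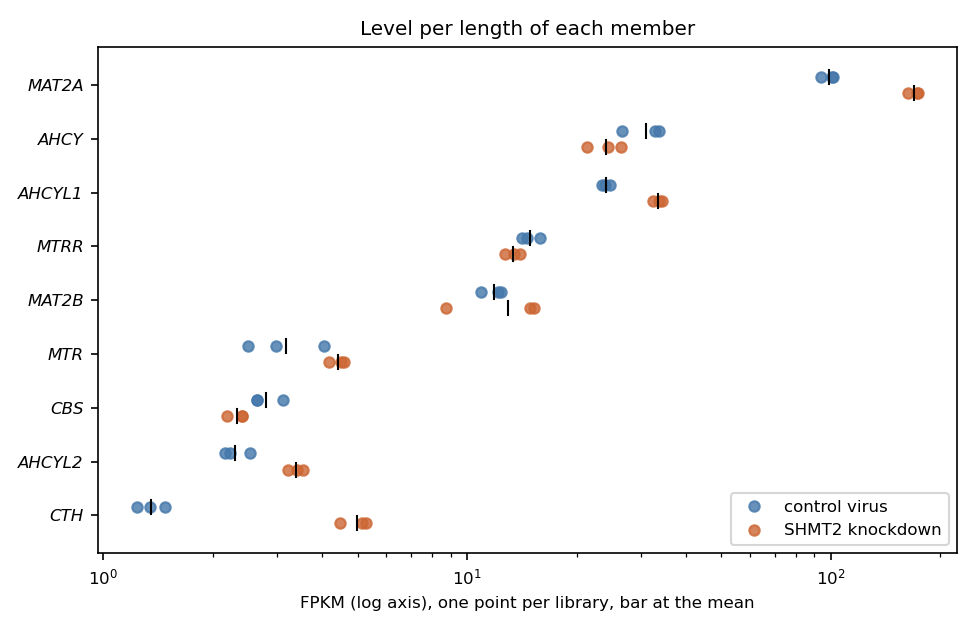
FPKM of the 9 enzymes in the control and knockdown groups on a log axis, with points for the 3 libraries of each group and a bar at the group mean. At the deposited gene lengths, CTH moves from the lowest of the 9 in controls (1.35 FPKM) to above AHCYL2 and CBS in knockdowns (4.96 FPKM), where it overlaps MTR.

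The sequences before the start sites of CTH, MAT2A and AHCYL1 are printed because these 3 had the smallest adjusted p among the members that rose. They come from RefSeq (GRCh38.p14) and cover 250 bases before the start, in the sense of the gene, with matches to the motifs named below in capitals:
CTH, chr1:70411018-70411267, plus strand: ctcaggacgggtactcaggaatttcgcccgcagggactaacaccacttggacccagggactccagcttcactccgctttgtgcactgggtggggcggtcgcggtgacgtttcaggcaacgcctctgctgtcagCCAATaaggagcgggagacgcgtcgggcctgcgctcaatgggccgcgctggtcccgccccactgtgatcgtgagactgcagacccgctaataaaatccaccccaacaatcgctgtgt
MAT2A, chr2:85538918-85539167, plus strand: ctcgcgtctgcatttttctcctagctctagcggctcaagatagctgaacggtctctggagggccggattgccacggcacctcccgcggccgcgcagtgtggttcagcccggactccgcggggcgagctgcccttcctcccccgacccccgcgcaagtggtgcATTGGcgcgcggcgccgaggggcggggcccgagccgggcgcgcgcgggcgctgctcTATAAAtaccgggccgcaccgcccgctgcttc
AHCYL1, chr1:109984515-109984764, plus strand: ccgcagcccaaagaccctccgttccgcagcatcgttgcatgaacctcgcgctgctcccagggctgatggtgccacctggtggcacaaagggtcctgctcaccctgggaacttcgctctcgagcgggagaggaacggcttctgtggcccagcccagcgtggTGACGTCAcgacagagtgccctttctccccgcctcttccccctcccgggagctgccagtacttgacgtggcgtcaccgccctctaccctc
The table of RefSeq promoters matched 8 of the 9 enzymes, all but MTRR. Their windows of 250 bases before to 50 after each start were searched on both strands for TGATGNAA (the amino acid response core that ATF4 is known to bind, held by 3.62% of 35116 promoters), CACGTG (an E-box, 7.26%), TGACGTCA (the cAMP response element, 1.85%), TATAAA (11.5%) and CCAAT (34.6%). The last 2 were added after the promoters had been read. The CTH window held CCAAT at -117, counted from the start site. The MAT2A window held CCAAT on the reverse strand (printed as ATTGG) at -88 and TATAAA at -32. AHCYL1 has 3 windows: the printed one held TGACGTCA at -90, and the others held TATAAA at 21 and CCAAT at -142. CCAAT was also found in windows of MAT2B, AHCYL2, MTR and CBS, but not in those of AHCY. TGATGNAA was found in 1 of the alternative promoters of AHCYL2, at -137, and CACGTG in none of the 8. These are matches of letters in these windows and say nothing of what binds there.

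The genes most like CTH across the 6 libraries were TLCD4, ABLIM3 and ERO1B. Likeness was the root mean square difference of log2 CPM, centred on the control mean, among 10004 genes with a mean of at least 5 CPM. TLCD4, on chromosome 1 as CTH is, differed from CTH by 0.0647 and was measured at 5.35, 5.28 and 4.56 CPM in controls and 17.6, 17.7 and 16.9 CPM in knockdowns. ABLIM3, on chromosome 5, differed by 0.0951, and ERO1B, an oxidase of the endoplasmic reticulum encoded on chromosome 1, differed by 0.0966. Their log2 fold changes were 1.78 (SE 0.12), 1.86 (SE 0.10) and 1.83 (SE 0.13), beside 1.79 for CTH. This closeness follows from the selection, which used the same 6 libraries.

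The other genes of the pathway were taken as 6 lists with 48 genes, of which 41 passed the filter on low counts. Among these, 6 rose and 16 fell (53.7% called, against 51.8% of all tested genes), and their median log2 fold change was -0.34, beside 0.39 for the 9 enzymes. By list the share called ran from 30% (cysteine use and sulfide) to 77.8% (methyltransferases). The counts per list below stand against 26.7% higher and 25.1% lower over all tested genes. The lists are small, and none was tested as a set. Enzymes known chiefly from the liver were near absent: MAT1A, BHMT and BHMT2 had at most 3 counts in any library and were not tested.

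**Figure D5:**
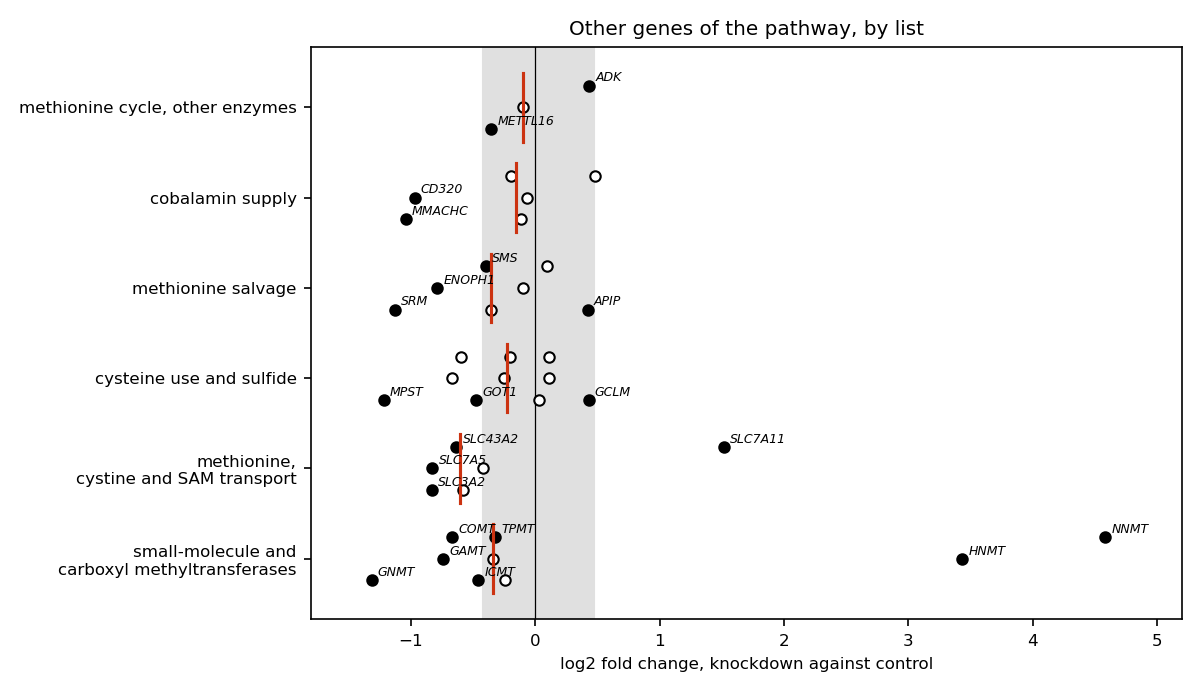
Log2 fold change of every tested gene of the 6 pathway lists, grouped by list, with called genes filled and named, a red line at the median of each list and a grey band over the quartiles of all tested genes. Of the 41 genes 16 fell and 6 rose. NNMT (4.58, but 6.36 without control replicate 3) and HNMT (3.43) lie highest.

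Around the cycle itself 1 of 3 tested genes rose and 1 fell, METTL16 being the one that fell. ADK, the kinase that removes the adenosine released by AHCY, rose from 61.0 ± 0.408 to 82.5 ± 8.20 CPM (SD, n = 3 each; log2 fold change 0.44, edgeR adjusted p = 0.00748). Of the 6 genes that supply MTR with cobalamin, 0 rose and 2 fell. MMACHC, which processes cobalamin in the cytosol, fell from 36.5 ± 4.45 to 17.7 ± 0.897 CPM (log2 fold change -1.04, SE 0.12, edgeR adjusted p = 0.000397). CD320, the cell-surface receptor for transcobalamin, fell from 35.4 ± 7.96 to 18.03 ± 4.14 CPM (log2 fold change -0.97, SE 0.22, edgeR adjusted p = 0.00733). These falls stood beside an uncalled 0.40 for MTR.

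SAM is also used for polyamines, and the methylthioadenosine left over is salvaged to methionine. In this list 1 of 7 tested genes rose and 3 fell. SRM, spermidine synthase, fell from 174 ± 12.0 to 79.8 ± 10.8 CPM (SD, n = 3 each; log2 fold change -1.13, SE 0.12, edgeR adjusted p = 0.000256). ENOPH1, an enzyme of the salvage route, fell from 109 ± 9.86 to 63.2 ± 10.8 CPM (log2 fold change -0.79), and SMS, spermine synthase, fell from 553 ± 43.0 to 421 ± 17.1 CPM (-0.39). MTAP, which opens the salvage route, was near absent with 8, 6 and 6 counts in the control libraries and 2, 3 and 3 in the knockdown libraries, and was not tested.

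Downstream of CTH, 1 of 10 tested genes for the use of cysteine and for sulfide rose and 2 fell. GCLM, the modifier subunit of the enzyme that starts glutathione synthesis, rose from 105 ± 9.63 to 142 ± 2.98 CPM (SD, n = 3 each; log2 fold change 0.43, edgeR adjusted p = 0.0065), but its 50 nearest tested genes had the same median, 0.43. MPST, which makes sulfide from mercaptopyruvate, fell from 36.3 ± 5.88 to 15.6 ± 1.24 CPM (log2 fold change -1.22, SE 0.14, edgeR adjusted p = 0.000437), and GOT1, a cytosolic aspartate and cysteine aminotransferase, fell from 122 ± 8.15 to 88.2 ± 7.74 CPM (-0.47). CDO1, cysteine dioxygenase, had 0 counts in all 6 libraries.

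Among transporters, 1 of 6 tested genes rose and 3 fell. SLC7A11, the cystine importer that offers a second source of cysteine beside CTH, rose from 36.8 ± 5.46 to 105 ± 9.02 CPM (SD, n = 3 each; log2 fold change 1.52, SE 0.13, edgeR adjusted p = 0.000113). SLC7A5, an importer of large neutral amino acids including methionine, fell from 577 ± 9.76 to 325 ± 18.999 CPM (log2 fold change -0.83, SE 0.08, edgeR adjusted p = 0.000213), and SLC43A2, another such importer, fell from 16.8 ± 0.518 to 10.8 ± 0.918 CPM (-0.63). The tested genes around SLC43A2, up to 25 on each side, had a median of -0.39. SLC3A2, the heavy chain that both SLC7A11 and SLC7A5 need at the cell surface, fell from 294 ± 38.2 to 165 ± 43.6 CPM (log2 fold change -0.83, SE 0.20, edgeR adjusted p = 0.0104). SLC7A11 thus rose, as CTH did, while its heavy chain fell.

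Of 9 tested methyltransferases for small molecules and carboxyl groups, which spend SAM and make SAH, 2 rose and 5 fell. HNMT, histamine methyltransferase, rose from 0.729 ± 0.0339 to 7.94 ± 0.608 CPM (SD, n = 3 each; log2 fold change 3.43, SE 0.18, edgeR adjusted p = 1.41e-05). NNMT, nicotinamide methyltransferase, was counted 0, 1 and 5 times in the control libraries and 64, 47 and 71 times in the knockdown libraries (log2 fold change 4.58, SE 0.53, edgeR adjusted p = 0.0004). With so few control counts its size was uncertain: it was 6.36 without control replicate 3, which held 5 of the 6 control counts, and 1.13 with limma on log2(FPKM + 1). GAMT, which makes creatine, fell from 16.5 ± 1.24 to 9.86 ± 0.492 CPM (log2 fold change -0.74, edgeR adjusted p = 0.0015). The tested genes around GAMT, up to 25 on each side, had a median of -0.47.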

How the data were processed

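Whole-number read counts per gene, with FPKM beside them, were deposited by the authors for 20036 genes, per the file headers. The table's own counts, lengths and column totals give the FPKM back to within 0.01%. RNA was isolated with TRIzol, per the labels' protocols. The aligner, counter, build and strand stand as not given in the sources used here. Of 19852 identifiers found in GENCODE 29, 79% shared a start or end on GRCh38, and coordinates are those of the table.

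Counts were tested with edgeR 4.0.16 (R 4.3.3): filterByExpr, TMM factors, quasi-likelihood fit without covariates, Benjamini-Hochberg adjustment over 12292 genes. SE is the log2 fold change over the square root of F, and 95% intervals use the fit's degrees of freedom. The biological coefficient of variation was 14.2%. Tried on simulated data, the test recovered 30% of 1.5-fold, 77.6% of 2-fold, 100% of 4-fold and 98% of 8-fold changes. Of its 161 calls among 12153 genes, 9 were false. Far fewer genes were called there than in these data, so the shares cannot be carried over directly. Named genes are SHMT2, the 9 enzymes, the 3 called genes of smallest adjusted p per pathway list, the 3 genes most like CTH, and markers; further genes were named after their values were seen. Alternatives were other scaling factors, no filter, DESeq2 1.42.0, limma 3.58.1 on log2(FPKM + 1) and log2(FPKM + 0.1), the replicate number as a block, each library left out, and both libraries that stood apart left out. GENCODE 29 lengths for FPKM were added after seeing the data. The enzymes, lists and settings were chosen with earlier results of these data known. Intervals and floors cover the spread of these libraries or counting error only. Sequences and motifs came from GENCODE 29 transcripts and RefSeq promoters.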

Additional observations from a re-analysis of the deposited data

How the results depend on the processing

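The enzymes CTH, MAT2A, AHCYL1 and AHCYL2, kept their direction and their call in all 15 alternatives, with log2 fold changes of 1.34 to 1.89, 0.67 to 0.78, 0.37 to 0.48 and 0.41 to 0.55. The number of enzymes called lower, 2 in the fit reported, was 1 with library size alone, 1 without the filter on low counts, 1 with DESeq2, and 1 with each of limma on log2(FPKM + 1) and limma on log2(FPKM + 0.1), and ranged from 0 to 3 with 1 library left out. In all of these the falls of AHCY and CBS kept their sign. The log2 fold change of MAT2B ranged from -0.0751 to 0.225 over the alternatives and was negative without control replicate 1, knockdown replicate 1 or knockdown replicate 3 (-0.0208, -0.0558 and -0.0751). MTR was called in 5 of the 15 and MTRR in 3. Library size alone moved the median of all genes to 0.09 and the share of calls that were higher from 51.5% to 60.2%. With the replicate block 1 enzyme was called lower (AHCY, as CBS was at an adjusted p of 0.07) and 4 higher, and 5444 genes were called in all, against 6372 without it. The correlations of same-numbered libraries, each centred on its group mean, were -0.30, -0.28 and 0.30. The largest between any control and any knockdown library was 0.45, for control replicate 1 and knockdown replicate 2, the libraries that stood apart. With 1 such library in each group, these values cannot show whether the replicate numbers mark pairs. The counts of low genes such as CTH limit the precision of its fold change. With 1 library left out, 4748 to 6784 genes were called. With both libraries that stood apart left out, 9135 of 12415 tested genes were called, among them all 9 enzymes. That fit rests on pairs of libraries that hardly differ and called most genes, so its calls are not a feature of these enzymes.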

Other observations

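MTAP, which opens the route from methylthioadenosine back to methionine, is encoded on chromosome 9 beside CDKN2A and CDKN2B. CDKN2A and CDKN2B had 0 counts in all 6 libraries, where a count of 0 allows up to 3. MTAP had between 2 and 8 counts per library. The flanking gene KLHL9 was counted 687, 557 and 512 times in the control libraries and 912, 583 and 918 times in the knockdown libraries. On the other side DMRTA1 had 89, 65 and 91 counts in the control libraries and 87, 55 and 65 in the knockdown libraries. These genes were chosen after their values were seen.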
